A study of Mus musculus with 8 samples.

Results

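The mitochondrial ribosomal protein genes are the nuclear genes for the proteins of the ribosome inside mitochondria. They were taken as every gene whose symbol in the platform annotation begins with Mrpl or Mrps and a digit, and each was represented by its probe set with the highest mean over the 8 arrays. The rule found 74 of the 12393 genes that the array names by 1 symbol, measured by 127 probe sets, and all 74 passed the filter on low signals that left 7340 genes. By the known composition of the complex, 49 of them belong to the large subunit and 24 to the small subunit. The other one, Mrps36, carries the name but encodes a component of the α-ketoglutarate dehydrogenase complex. Another 3 probe sets name Mrpl30, Mrps34 or Mrpl53 together with a second gene and were not used. The rule used no measured change.

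The cells were MCE301, a colonic epithelial line established from transgenic mice that carry a temperature-sensitive SV40 large T-antigen, so every group below carries that oncogene. Sodium butyrate, which bacteria of the colon make from fibre and which inhibits histone deacetylases, was given at 2 mM for 0, 6, 12 or 24 h, and total RNA was measured on Affymetrix 430A mouse arrays. Each time has 2 arrays, and whether the pair came from separate cultures is not in the labels: p-values reflect the spread between arrays alone, which may be technical. There were no butyrate-free cells at 6, 12 or 24 h, so time in culture and butyrate cannot be told apart. The labels give neither the age nor the sex of the animals, nor the temperature of the culture.

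A mitochondrial ribosome is built from rRNAs transcribed from mitochondrial DNA and from proteins that are translated in the cytosol and imported. It translates only the few messages of mitochondrial DNA, which encode core subunits of the respiratory chain and of ATP synthase. Many of its proteins have a counterpart in the bacterial ribosome, while others are specific to mitochondria. In colonic epithelium butyrate is itself a fuel that mitochondria oxidise. None of the 13 protein genes of mitochondrial DNA is named by a probe set of this array, so the products of this ribosome were not measured.

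All 8 arrays had the same trimmed mean signal of 500.2, the 2 arrays of a time correlated at 0.979 to 0.982 across probe sets, and the Gapdh 3' to 5' ratio was 0.767 to 0.878. The epithelial markers Epcam, Cdh1, Krt8, Krt18, Krt19 and Cldn7 were all detected, with mean signals per time of 1150 to 23843. All 9 leukocyte, endothelial and fibroblast markers on the array failed the filter, with mean signals per time of at most 109.8, below the median of all values of 144.7. Over the 74 ribosomal protein genes, the median deviation of an array from each gene's own mean lay between -0.10 (the first 24 h array) and 0.07 (the second 0 h array) on the log2 scale. The part that such array differences play in the results was not tested.

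Butyrate exposure was accompanied by changes in both directions among these genes, and the changes were of moderate size. Changes are differences in log2(signal + 32) with the standard error of the limma fit, and called genes are those with an adjusted p under 0.05 (Benjamini-Hochberg, over the 7340 genes). At 6 h, 3 of the 74 were lower and 3 higher, against 6.68% lower and 9.06% higher among all genes. At 12 h, 11 were lower and 10 higher, against a background of 17.5% lower and 18.1% higher. At 24 h, 18 were lower and 10 higher, against a background of 23.5% lower and 24.6% higher. The share of members that fell at 24 h, 24.3%, was thus near that of all genes, and the share that rose, 13.5%, was below it. Both 24 h arrays lay below both 0 h arrays in 34 of the 74 members and above them in 18, and the groups overlapped in 22. Among all genes 35.9% lay below and 39.0% above. The share below was thus larger among the members and the share above smaller, which was not tested. Members named for the largest changes were picked from those whose groups did not overlap, so their lack of overlap was fixed by the choice. The median change of the 74 genes was -0.05 at 6 h, -0.07 at 12 h and -0.15 at 24 h, beside medians of 0.01, 0.03 and 0.04 over all genes. The 24 h median was -0.215 without the first 0 h array, -0.0914 without the second 0 h array and -0.0985 without the first 24 h array, and the 6 h median was -0.02 without the second 0 h array and -0.01 without the first 6 h array. Their changes also spread less: the SD at 24 h was 0.476 over the members and 0.828 over all genes. This was not particular to them. Among other mitochondrial lists, the SD was 0.411 for the genes that charge tRNAs, 0.417 for the respiratory chain and ATP synthase and 0.563 for the assembly genes. Over the 6 tested subunits of the same ribosome that carry other symbols it was 0.81, near that of all genes. In RNA from whole cultures, fewer cells of a type and less RNA per cell cannot be told apart.

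**Figure D1:**
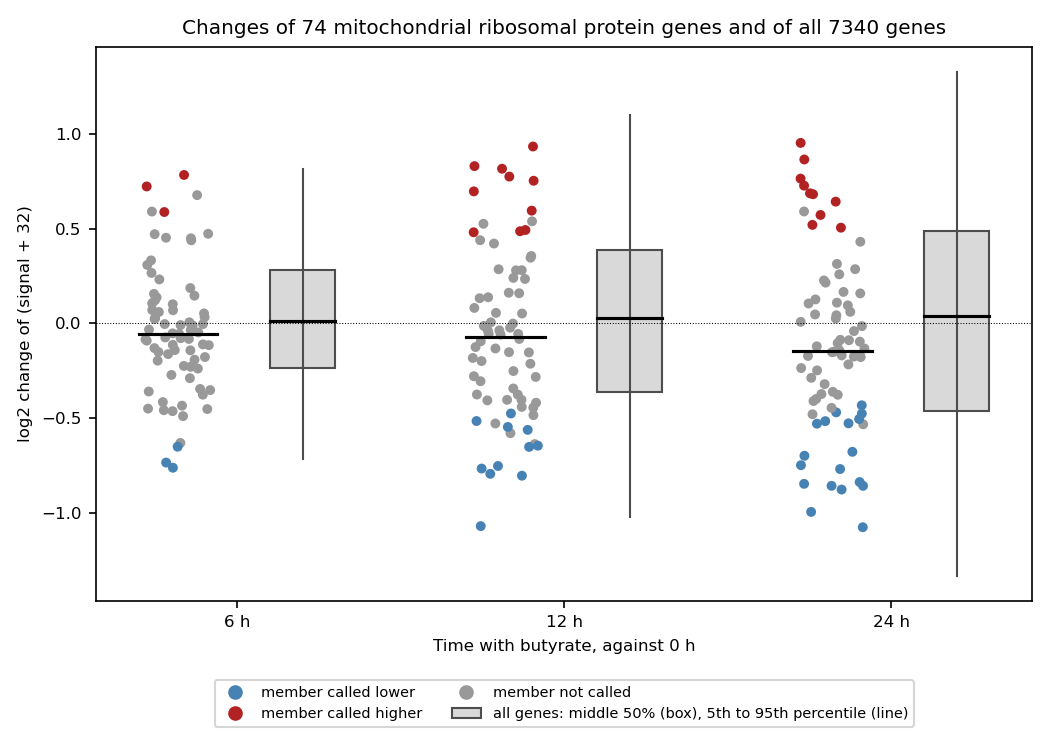
The log2 change of signal + 32 against 0 h (vertical axis) is shown at 6, 12 and 24 h (horizontal axis) for each of the 74 mitochondrial ribosomal protein genes (points, with their median as a bar) and for all 7340 genes (box for the middle 50%, line for the 5th to 95th percentile). Blue and red points are members called lower and higher, and at 24 h they number 18 and 10.

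The counts depended on single arrays. Without the first 0 h array, 9 members were lower and 4 higher at 24 h. Without the second 0 h array the counts were 10 lower and 7 higher. Leaving out the first 24 h array gave 9 lower and 8 higher, and leaving out the second gave 12 lower and 4 higher. In these fits the calls over all genes also dropped, to between 17.2% and 18.5% lower and between 18.1% and 19.5% higher. Of the 28 calls at 24 h, 9 held in all 12 alternative settings that bear on that comparison (other pseudocounts, filters, scaling and fits, and each array left out), and no call changed direction. These 9 were Mrps28, Mrps30, Mrps18b, Mrpl46, Mrpl50 and Mrps15 among the genes that fell, and Mrps12, Mrpl28 and Mrpl14 among those that rose.

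**Figure D2:**
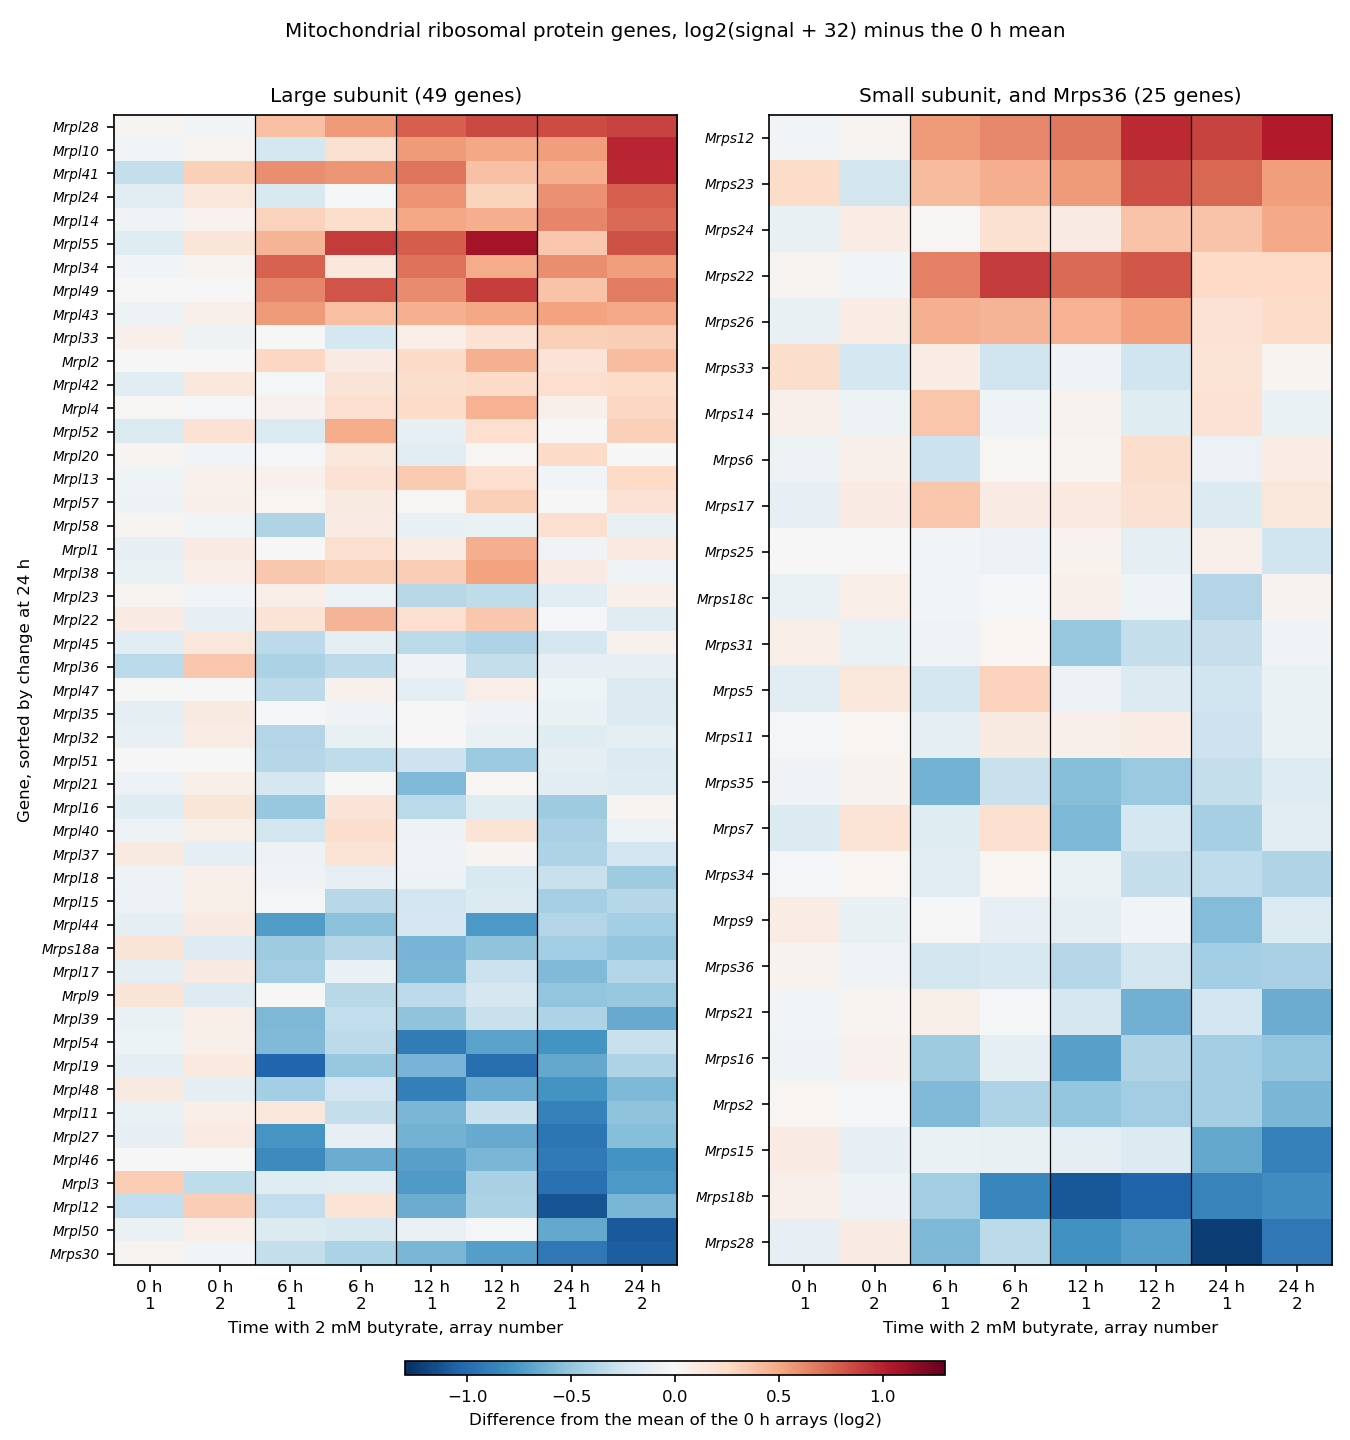
Each row is 1 of the 74 genes (49 of the large subunit in the left panel, 24 of the small subunit and Mrps36 in the right panel), each column is 1 array in order of time, and colour gives the difference in log2(signal + 32) from the mean of the 0 h arrays. Rows are sorted by the change at 24 h, which ran between -1.08 for Mrps28 and 0.95 for Mrps12.

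Among the genes that fell, the largest change belonged to Mrps28, a small-subunit protein related to a bacterial counterpart. Its signals were 1420 and 1649 at 0 h, 1010 and 1200 at 6 h, 872 and 918 at 12 h, and 636 and 789 at 24 h. Each later time lay below the one before it in both arrays, and the 24 h arrays were below every other array. The change at 24 h was -1.08 ± 0.17, a 2.11-fold fall (limma, adjusted p = 0.000677). Mrps30, which despite its name is a protein of the large subunit and has no bacterial counterpart, had signals of 925 and 880 at 0 h, 721 and 671 at 6 h, 587 and 538 at 12 h, and 460 and 414 at 24 h. It too was ordered by time with no overlap between any of the 4 groups, and fell by 0.996 ± 0.153 on the log2 scale at 24 h (limma, adjusted p = 0.000485).

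Mrps18b and Mrpl46 fell at all 3 times. Mrps18b, one of 3 mammalian relatives of a bacterial small-subunit protein, had signals of 1924 and 1744 at 0 h, 1330 and 1002 at 6 h, 838 and 873 at 12 h, and 991 and 1031 at 24 h. Its lowest level was at 12 h, with a change of -1.07 ± 0.17 (limma, adjusted p = 0.00117), and at 24 h the change was -0.84 ± 0.17 (limma, adjusted p = 0.00274). Mrpl46, a mitochondria-specific protein of the large subunit, had signals of 990 and 988 at 0 h, 544 and 621 at 6 h, 595 and 647 at 12 h, and 507 and 565 at 24 h. All 6 arrays with butyrate lay below both 0 h arrays, and the change was already -0.74 ± 0.16 at 6 h (limma, adjusted p = 0.0118). The 6 h calls were the less secure ones: without the first 0 h array the adjusted p at 6 h was 0.0628 for Mrpl46 and 0.156 for Mrps18b, and without the second 0 h array it was 0.0630 and 0.0866. Without the first 6 h array Mrpl46 had an adjusted p of 0.0666, and without the second 6 h array Mrps18b had one of 0.165. The 12 h call of Mrpl46 was lost without the first 12 h array (adjusted p = 0.0594).

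Mrpl50 and Mrps15 were called at 24 h only. Mrpl50, a mitochondria-specific large-subunit protein, had signals of 405 and 462 at 0 h, 379 and 371 at 6 h, 405 and 425 at 12 h, and 261 and 187 at 24 h. The 12 h arrays overlapped with 0 h and the 24 h arrays were below all others, with a change of -0.88 at 24 h. A second, dimmer probe set of Mrpl50 changed by -0.30 at 24 h and was not called (adjusted p = 0.21 in a limma fit over all kept probe sets). Mrpl50 was the only member called between 24 h and 12 h (-0.82 ± 0.18, limma adjusted p = 0.0241), against a background of 3.58% lower and 1.81% higher. That call was lost without the first or the second 12 h array and without the second 24 h array, with 0 members called in each case, and a fit with the replicate number as a block called 2 members lower. Another 4 members were lower and 0 higher in that comparison at an unadjusted p under 0.05 in limma, which 19.4% of all genes passed in either direction. Mrps15, a small-subunit protein with a bacterial counterpart, had signals of 787 and 678 at 0 h, 687 and 681 at 6 h, 667 and 640 at 12 h, and 450 and 384 at 24 h. Its 24 h arrays were the lowest of the 8, and the change at 24 h was -0.77 ± 0.16 (limma, adjusted p = 0.00281). A second probe set of Mrps15 gave a change of -0.83 at 24 h and was already called lower at 12 h, with a change of -0.49 (adjusted p = 0.0391 in a limma fit over all 11505 kept probe sets). Between 12 h and 6 h, 0 of the 74 members were called in either direction in limma, also with the replicate block or the trend and robust eBayes. The background was 2.14% lower and 2.03% higher. At an unadjusted p under 0.05 in limma, 4 members were lower and 3 higher, while 20.5% of all genes passed in either direction.

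The largest rise was that of Mrps12, a protein of the decoding centre of the small subunit. Its signals were 888 and 939 at 0 h, 1354 and 1426 at 6 h, 1490 and 1826 at 12 h, and 1707 and 1896 at 24 h. All arrays with butyrate were above both 0 h arrays, and the 12 h and 24 h arrays overlapped. The change was 0.59 ± 0.16 at 6 h and 0.95 ± 0.16 at 24 h, a 1.94-fold rise (limma, adjusted p = 0.0355 and 0.000941). At 6 h its call was lost whichever 0 h or 6 h array was left out, with adjusted p-values of 0.0912 to 0.159. Mrpl28, a large-subunit protein with a bacterial counterpart, had signals of 1240 and 1180 at 0 h, 1596 and 1788 at 6 h, 2102 and 2211 at 12 h, and 2210 and 2252 at 24 h. The butyrate arrays all lay above the 0 h arrays, and the change was 0.82 ± 0.15 at 12 h (limma, adjusted p = 0.0024) and 0.87 ± 0.15 at 24 h (limma, adjusted p = 0.00105). Of the 2 other probe sets of Mrpl28, one changed by 0.93 and the other by 0.06 at 24 h. Mrpl14, a large-subunit protein at the face that meets the small subunit, had signals of 1196 and 1278 at 0 h, 1531 and 1458 at 6 h, 1764 and 1728 at 12 h, and 1936 and 2074 at 24 h. Its arrays were ordered by time without overlap, and the change at 24 h was 0.68 ± 0.15 (limma, adjusted p = 0.00374). At 12 h, where Mrpl14 was also called, the call was lost whichever 0 h or 12 h array was left out (adjusted p = 0.0724 to 0.126).

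**Figure D3:**
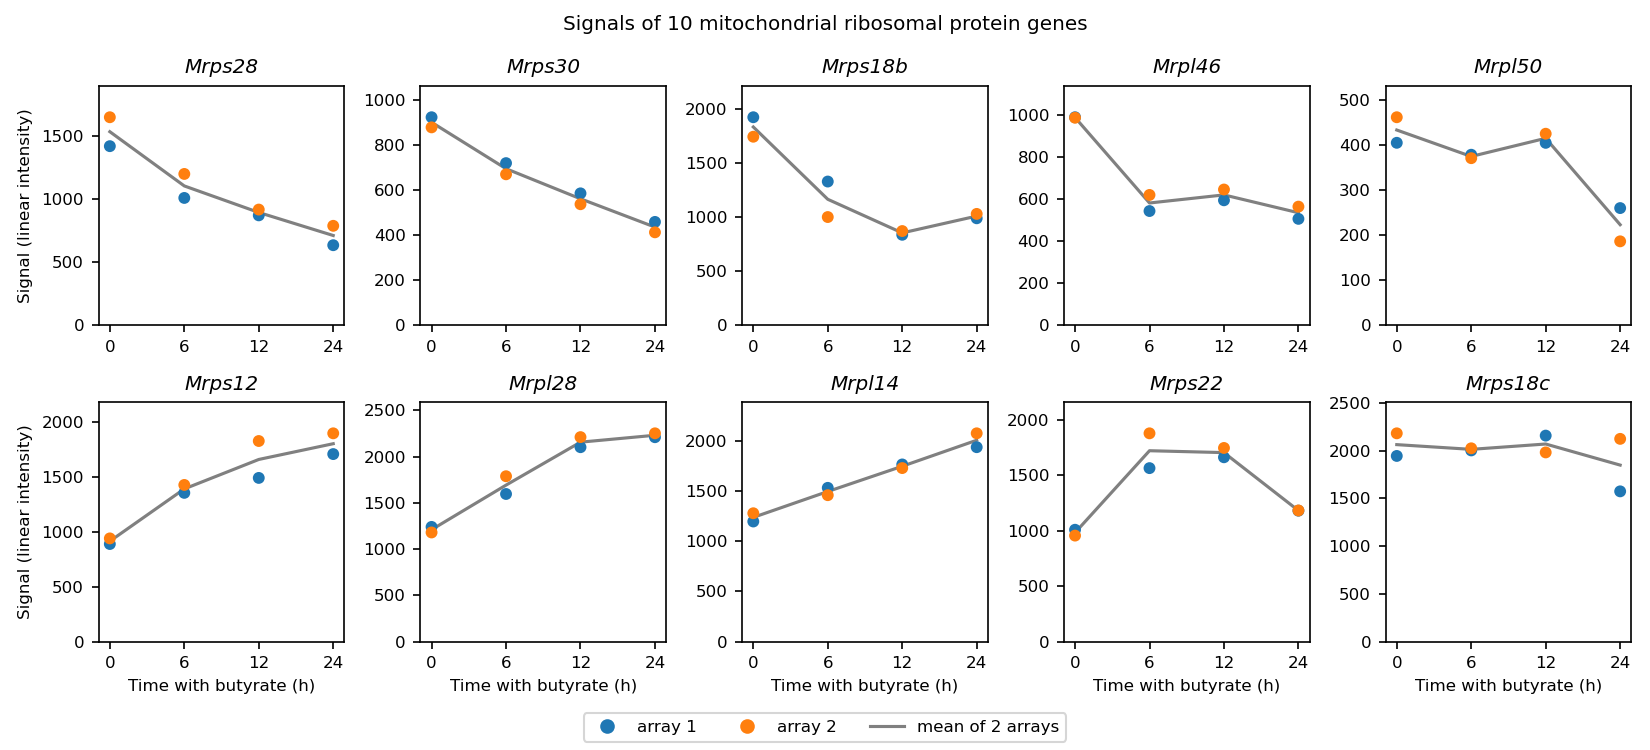
Signals (linear intensity, axis from 0) of 10 of the genes are plotted against time with butyrate, with 1 point per array (blue for array 1, orange for array 2) and a grey line through the mean of the 2 arrays. Mrps28 and Mrps30 were lowest at 24 h, and Mrpl50 was low at 24 h only. Mrps12, Mrpl28 and Mrpl14 had their highest mean at 24 h, but the 24 h arrays of Mrps12 and Mrpl28 overlapped with those of 12 h. Mrps22 was highest at 6 and 12 h, and Mrps18c overlapped with 0 h at every time.

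The other genes that rose at 24 h encode 6 proteins of the large subunit and Mrps23 of the small subunit, and their calls rested on single arrays. Mrpl10, at the base of the stalk where translation factors dock, had signals of 1883 and 2580 at 24 h, against 1249 and 1320 at 0 h, with a change of 0.76 ± 0.20 (limma, adjusted p = 0.00969). Mrpl41, a mitochondria-specific protein, had 2125 and 3042 at 24 h, against 1226 and 1890 at 0 h, with a change of 0.73 ± 0.24 (limma, adjusted p = 0.0274). A second probe set of Mrpl41 was called higher at 12 h (0.55) and at 24 h (0.46), with adjusted p-values of 0.0229 and 0.0380 in a limma fit over all kept probe sets. Mrpl24, of the polypeptide exit region, had 2316 and 2643 at 24 h, against 1373 and 1692 at 0 h (0.69 ± 0.18, limma adjusted p = 0.00989). The naming rule required groups without overlap. In each of these 3 genes the groups did not overlap, but the calls were lost without the first 0 h array (adjusted p = 0.0557, 0.228 and 0.0828) and without the second 24 h array (adjusted p = 0.0859, 0.198 and 0.0653). Mrps23, Mrpl34, Mrpl49 and Mrpl43 rose by 0.64, 0.57, 0.52 and 0.51, with adjusted p-values of 0.0198, 0.0417, 0.0313 and 0.0198 in limma. A second probe set of Mrps23 changed by 0.34 at 12 h and 0.40 at 24 h. It was called at neither time (adjusted p = 0.123 and 0.0637 in a limma fit over all kept probe sets). Mrpl34 lost its call whichever 0 h or 24 h array was left out (adjusted p = 0.104 to 0.148), and Mrpl43 and Mrpl49 lost theirs in 3 of these 4 cases each (adjusted p = 0.0629 to 0.110 for Mrpl43 and 0.103 to 0.191 for Mrpl49). Mrps23 lost its call without the second 0 h array or the first 24 h array (adjusted p = 0.166 and 0.111).

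Proteins of the stalk thus moved in both directions. Mrpl12, whose copies form the stalk that recruits translation factors and which also binds the mitochondrial RNA polymerase, had signals of 1103 and 1594 at 24 h, against 1936 and 3050 at 0 h. The groups did not overlap, although the 0 h arrays were far apart, and the change was -0.86 ± 0.26 (limma, adjusted p = 0.0206). Its call was lost without the second 0 h array (adjusted p = 0.177) and without the first 24 h array (adjusted p = 0.152). Mrpl11, at the base of the same stalk, had signals of 556 and 723 at 24 h, against 989 and 1115 at 0 h (-0.70 ± 0.21, limma adjusted p = 0.018), and lost its call without the same arrays (adjusted p = 0.102 and 0.129).

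Near the peptidyl transferase centre, Mrpl3 had signals of 628 and 742 at 24 h, against 1601 and 994 at 0 h (-0.86 ± 0.22, limma adjusted p = 0.0097). Mrpl27, whose bacterial counterpart reaches into the same centre, had 1402 and 1844 at 24 h, against 2534 and 2930 at 0 h (-0.75 ± 0.23, limma adjusted p = 0.0198). Neither gene's groups overlapped, which the naming rule required. A second probe set of Mrpl3 was called lower at 12 h (-0.59) and at 24 h (-0.98), with adjusted p-values of 0.0267 and 0.00141 in a limma fit over all kept probe sets. The call of Mrpl3 was lost without the first 0 h array or the first 24 h array (adjusted p = 0.0929 and 0.0653), and that of Mrpl27 without the second 0 h array or the first 24 h array (adjusted p = 0.113 and 0.137). The remaining 8 genes that fell at 24 h changed by -0.68 (Mrpl48) to -0.43 (Mrps36), and all 8 lost their calls without at least 2 of the 4 arrays. They were Mrpl48, Mrpl54, Mrpl39, Mrps2, Mrpl9, Mrps16, Mrps18a and Mrps36, with adjusted p-values up to 0.318 (Mrpl54 without the first 24 h array). Other kept probe sets changed at 24 h by -0.14 (Mrpl48), -0.44 (Mrpl39), -0.59 (Mrps2) and -0.43 (Mrpl9). Of these, only that of Mrps2 was called (adjusted p = 0.0381 in a limma fit over all kept probe sets). Human MRPS2 and MRPS16 are among the genes of this ribosome whose variants cause mitochondrial disease.

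By time, the called genes fell into a few courses. Of the 74, 41 were called at no time, 9 were lower at 24 h only, 7 were lower at 12 and 24 h, and Mrps18b and Mrpl46 were lower throughout. Another 5 were higher at 12 and 24 h, 3 were higher at 24 h only, and Mrps12 and Mrpl49 were higher throughout. No gene was called in opposite directions at different times. These courses are patterns of calls against 0 h and not tests between times. They were not counted over all genes, so whether their numbers differ from the background is not known. Of the members, only Mrpl50 was called between 24 h and 12 h, so a call at 24 h only is not by itself a later change. At 12 h, Mrpl27 was at -0.64 and Mrpl10 at 0.53 (limma, adjusted p = 0.0501 and 0.0639), beside -0.06 for Mrpl50. Second probe sets of Mrpl3, Mrps15 and Mrpl41 were already called at 12 h. The 6 h counts moved most between fits: with the replicate number as a block, 7 members were lower and 7 higher at 6 h (against 9.32% lower and 12.4% higher of all genes), while leaving out 1 array gave 0 lower and 1 higher without the first 0 h array, 0 and 0 without the second, 1 and 2 without the first 6 h array, and 2 and 1 without the second. None of the 6 calls at 6 h held in all 12 settings. For the fits without 1 array at 6 h and 12 h, the calls over all genes were not set beside the counts of members. At 12 h, leaving out 1 array gave 5 lower and 5 higher without the first 0 h array, 6 and 6 without the second, 5 and 6 without the first 12 h array, and 6 and 3 without the second, and 4 of the 21 calls held throughout (Mrpl28, Mrps12, Mrps18b and Mrps22).

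A set of 5 genes was called at 6 or 12 h and not at 24 h. The clearest was Mrps22, a mitochondria-specific small-subunit protein whose human gene is mutated in mitochondrial disease. Its signals were 1009 and 956 at 0 h, 1565 and 1879 at 6 h, 1663 and 1747 at 12 h, and 1181 and 1183 at 24 h. The 6 h and 12 h arrays overlapped with each other and stood above the 24 h arrays, which in turn stood above the 0 h arrays. The change was 0.78 ± 0.16 at 6 h (limma, adjusted p = 0.0092), 0.78 ± 0.16 at 12 h (limma, adjusted p = 0.00394) and 0.26 ± 0.16 at 24 h (limma, adjusted p = 0.203). Between 24 h and 12 h it differed by -0.52 ± 0.16, which did not pass the threshold (limma, adjusted p = 0.0962). Without the second 0 h array or the second 6 h array its 6 h call was lost (adjusted p = 0.0618 and 0.0576).

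The other 4 of these genes moved by smaller margins, and for them too a difference between 24 h and 12 h did not pass the threshold. Mrpl55 had a change of 0.93 ± 0.23 at 12 h (limma, adjusted p = 0.00964) and 0.59 ± 0.23 at 24 h (limma, adjusted p = 0.0527). At 24 h it was called in 6 of the 12 alternative settings, among them the replicate block (limma, adjusted p = 0.00535) and the fit without the first 24 h array. Mrps26, which rose at 12 h by 0.49 ± 0.15 (limma, adjusted p = 0.0292), had a change of 0.22 at 24 h. Mrpl19 fell by 0.79 ± 0.22 on the log2 scale at 12 h (limma, adjusted p = 0.0175), with a change of -0.53 at 24 h that was called in the fit of only the 4 arrays compared (limma, adjusted p = 0.0395), and Mrps35 fell by 0.52 ± 0.17 at 12 h (limma, adjusted p = 0.0339), with -0.24 at 24 h. All 4 lost the 12 h call without some array: Mrpl55 without the first 0 h or the second 12 h array (adjusted p = 0.077 and 0.0706), Mrpl19 without the second 0 h or the second 12 h array (0.113 and 0.126), and Mrps26 and Mrps35 without any one of the 4 arrays (adjusted p of 0.0502 to 0.163 and 0.0866 to 0.147).

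Of the 49 large-subunit genes, 12 fell (24.5%) and 8 rose (16.3%) at 24 h, with a median change of -0.12. Of the 24 small-subunit genes, 5 fell (20.8%) and 2 rose (8.33%), with a median of -0.17. Among all genes 23.5% fell and 24.6% rose, so the shares that fell were near the background in both subunits. Over both subunits, 23.9% of the 46 genes with a bacterial counterpart fell, and 22.2% of the 27 specific to mitochondria. Of the 30 large-subunit genes with a bacterial counterpart, 6 fell (20%) and 5 rose. Of the 19 large-subunit genes specific to mitochondria, 6 fell (31.6%) and 3 rose. Among the 16 small-subunit genes with a bacterial counterpart, 5 fell and 1 rose, and among the 8 specific to mitochondria 0 fell and 1 rose in limma, also with the replicate block or the trend and robust eBayes. At 12 h, 1 of these 8 was lower and 3 were higher, against 17.5% and 18.1% of all genes. Differences between these classes were not tested. Of the 8, only Mrps34 was lower at an unadjusted p under 0.05 at 24 h, and Mrps23, the one that rose, lost its call without the second 0 h array (adjusted p = 0.166) or the first 24 h array (adjusted p = 0.111). The signals of Mrps34 were 1659 and 1596 at 24 h, against 2069 and 2131 at 0 h, with a change of -0.36 ± 0.16 (limma, adjusted p = 0.0829). The 3 relatives of bacterial S18 differed among themselves. Mrps18b fell throughout, Mrps18a, which sits in the large subunit, fell by 0.56 at 12 h (limma, adjusted p = 0.0228) and by 0.47 at 24 h (limma, adjusted p = 0.0375), and Mrps18c had signals of 1574 and 2124 at 24 h, against 1945 and 2182 at 0 h, which overlap (-0.17 ± 0.18, limma adjusted p = 0.464). Both calls of Mrps18a were lost without the first 0 h array, with adjusted p-values of 0.164 at 12 h and 0.246 at 24 h.

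The 41 genes that were called at no time had changes of -0.48 (Mrpl17) to 0.43 (Mrps24) at 24 h. With the replicate number as a block, 7 of the 41 were called at some time: Mrpl17 (adjusted p = 0.0136 at 24 h), Mrps24 (adjusted p = 0.0207 at 24 h), Mrpl18, Mrps21, Mrpl38, Mrps7 and Mrpl44. Mrpl58, a peptidyl-tRNA hydrolase built into the large subunit that can free stalled ribosomes, changed by 0.06 ± 0.19 at 24 h (limma, adjusted p = 0.818). For Mrpl44, a large-subunit protein with an RNase III-like fold, probe sets disagreed. Its brightest probe set changed by -0.41 ± 0.20 at 24 h and was not called (limma, adjusted p = 0.113), whereas the 2 others changed by -1.10 and -0.63, with adjusted p-values of 0.00152 and 0.0232 in a limma fit over all 11505 kept probe sets. Among called genes with more than 1 kept probe set, the other probe sets shared the sign of the change in 2 of 2 comparisons at 6 h, 6 of 7 at 12 h and 12 of 14 at 24 h, and none was called in the opposite direction. The exceptions were a probe set of Mrpl28 at 12 h (-0.01, beside 0.82 and 0.88 for the other 2, and with -0.38 at 6 h and 0.06 at 24 h, where the probe set used had 0.47 and 0.87), a probe set of Mrpl11 at 24 h (0.21) and a probe set of Mrpl49 at 24 h (-0.14). A shared sign is not a call. At 24 h another probe set was also called for Mrpl3, Mrpl11, Mrpl28, Mrpl41, Mrps2 and Mrps15. For Mrpl9, Mrpl39, Mrpl48, Mrpl49, Mrpl50 and Mrps23 no other probe set was called at 24 h.

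Proteins of the same ribosome that carry other names also moved in both directions. Dap3, a GTP-binding small-subunit protein also known as a mediator of cell death, rose more than any of the 74 at 24 h. It had signals of 3092 and 4071 at 24 h, against 1476 and 1923 at 0 h, with a change of 1.06 ± 0.23 (limma, adjusted p = 0.0035). At 12 h, with 3350 and 3589, it was already 1.03 higher (limma, adjusted p = 0.0064), a call that was lost without the first 0 h array (adjusted p = 0.0579). In contrast, Gadd45gip1, a large-subunit protein at the exit tunnel that is also known as CRIF1, averaged 388 at 24 h, against 994 at 0 h (-1.29 ± 0.29, limma adjusted p = 0.00433). Chchd1, of the small subunit, averaged 1169 at 24 h, against 2040 at 0 h (-0.79 ± 0.17, limma adjusted p = 0.0032). Ptcd3, a small-subunit protein of the pentatricopeptide repeat family, had a change of -0.35 ± 0.15 (limma, adjusted p = 0.0855). The 24 h calls of Dap3, Gadd45gip1 and Chchd1 were kept whichever array was left out.

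Genes that build and serve the ribosome also moved both ways at 24 h, where 23.5% of all genes were lower and 24.6% higher. Of 20 tested assembly genes, 7 fell (35%) and 3 rose (15%), led by Fastkd2, an RNA-binding protein of the mitochondrial granule, at -1.53 ± 0.28 (limma, adjusted p = 0.00141), with Rpusd4, a pseudouridine synthase, at -0.74 and Mterf3 at -0.67. The 3 that rose were Ngrn (0.73), Afg3l2 (0.51), a subunit of the protease that matures Mrpl32, and Mterf4 (0.49). Leaving out 1 array gave 5 lower and 1 higher without the first 0 h array, 3 and 1 without the second, 4 and 0 without the first 24 h array, and 6 and 2 without the second. The calls of Fastkd2 and Mterf3 held in all 4 cases, and Mterf4 lost its call in all 4 (adjusted p = 0.103 to 0.189). Rpusd4 and Ngrn lost theirs without the second 0 h array (adjusted p = 0.0735 and 0.0513) or the first 24 h array (adjusted p = 0.087 and 0.0616), and Afg3l2 without the first 0 h array or the first 24 h array (adjusted p = 0.136 and 0.111). Of 11 tested translation factors, Pdf, the deformylase of nascent chains, and the elongation factor Gfm1 fell by 1.04 and 0.55, while Tufm, the elongation factor that delivers tRNAs, rose by 0.83 ± 0.28 (limma, adjusted p = 0.03), a call that was lost without either 0 h array and without the second 24 h array (adjusted p = 0.0587, 0.16 and 0.263). The call of Gfm1 was lost without the second 0 h array and without either 24 h array (adjusted p = 0.056 to 0.191). Of 9 tested genes for charging mitochondrial tRNAs, only Qrsl1, a subunit of the glutaminyl-tRNA amidotransferase, was called at 24 h (-0.85 ± 0.19, limma adjusted p = 0.00424). Among 20 tested genes of mitochondrial DNA maintenance, transcription and RNA processing, 5 fell (25%, near the share of all genes), with Supv3l1 (-0.98), a helicase of RNA decay, as the largest, and 2 rose, Fastkd1 (0.80) and Mterf2 (0.75). The falls numbered 2 without either 0 h array or the first 24 h array and 3 without the second 24 h array, while both rises were kept.

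The regulators of mitochondrial biogenesis that were called were lower, from 6 h on. Of 9 tested, 4 fell at 6 h, 5 at 12 h and 5 at 24 h, beside 6.68%, 17.5% and 23.5% of all genes, and 0 rose in limma at any of these times, although 2 at 12 h and 1 at 24 h were higher at an unadjusted p under 0.05 and the replicate block called 1 higher at 24 h. The falls at 24 h numbered 3 without the first 0 h array, 4 without the second, 3 without the first 24 h array and 5 without the second; at 12 h they numbered 3 without the first 0 h or the first 12 h array. Pprc1, a coactivator of nuclear genes for mitochondria, averaged 233 at 24 h, against 563 at 0 h (-1.16 ± 0.16, limma adjusted p = 0.000255). Myc, a driver of ribosome and mitochondrial biogenesis, averaged 509 at 24 h, against 1106 at 0 h (-1.07 ± 0.19, limma adjusted p = 0.00123). Gabpb1, a subunit of the ETS factor GABP, changed by -1.29 at 6 h and by -0.78 at 24 h, and Nrf1 and Sp1 changed by -0.64 and -0.51 at 24 h, all of which passed the test. Nrf1 lost its 24 h call without the first or second 0 h array or the first 24 h array (adjusted p = 0.0983, 0.0625 and 0.151), and Sp1 without the first 0 h or first 24 h array (adjusted p = 0.139 and 0.13). Gabpa, the DNA-binding subunit of GABP, had a change of -0.12 ± 0.21 at 24 h (limma, adjusted p = 0.667), and Yy1 one of -0.21 ± 0.19 (limma, adjusted p = 0.395). The part of these regulators in the changes of the ribosomal protein genes was not tested.

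Protein import, which carries all these proteins into mitochondria, showed 7 falls and 3 rises among 26 tested genes at 24 h, of which the share that fell, 26.9%, was near that of all genes, 23.5%, and the share that rose, 11.5%, was below their 24.6%. The channel of the outer membrane, Tomm40, changed by -1.25 ± 0.15 (limma, adjusted p = 0.000128), Timm8a1 by -1.26 and the chaperone Hspa9 by -0.76, whereas the protease subunit Pmpca changed by 0.72, Timm17b by 0.68 and Grpel1 by 0.66. Without the second 24 h array, Pmpca and Timm17b lost their calls (adjusted p = 0.0513 and 0.06) and 1 gene was higher. The nuclear-encoded respiratory chain and ATP synthase had 3 falls (4.35%) and 15 rises (21.7%) among 69 tested genes and a median change of 0.14; the share that rose was near the 24.6% of all genes, and the share that fell was below their 23.5%. Ndufv3 of complex I changed by 1.09 ± 0.18 (limma, adjusted p = 0.000658), Sdhc by 1.06 and Uqcrh by 0.998, while Ndufs3 (-0.81), Uqcrb (-0.69) and Ndufb2 (-0.51) fell. The rises numbered 8 without the first 0 h array, 10 without the second, 13 without the first 24 h array and 5 without the second. In a fit with the trend and robust eBayes there were 6 falls and 21 rises, and with the replicate block 6 and 20. Uqcrb lost its call without the second 24 h array (adjusted p = 0.052), and Ndufb2 without the first 0 h array or the first 24 h array (adjusted p = 0.203 and 0.217). Of 12 tested tricarboxylic acid cycle genes, Suclg1 (0.91), Mdh2 (0.57) and Fh1 (0.50) rose, and Suclg2 (-0.91) and Sucla2 (-0.51) fell. Of these 5 calls, 2 were left without the first or second 0 h array, without the first 24 h array and without the second, among them that of Suclg1 in every case. The cytosolic ribosomal proteins spread least, with an SD of 0.240 at 24 h over 44 tested genes, 3 of which fell (Rps27l, Rpl12 and Rps25) and 0 of which rose in limma, at an unadjusted p under 0.05 or with the replicate block. Without any one 0 h or 24 h array 2 fell, since Rps25 lost its call (adjusted p = 0.0544 to 0.14). Differences between these lists were not tested, and all of them rest on the same arrays.

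**Figure D4:**
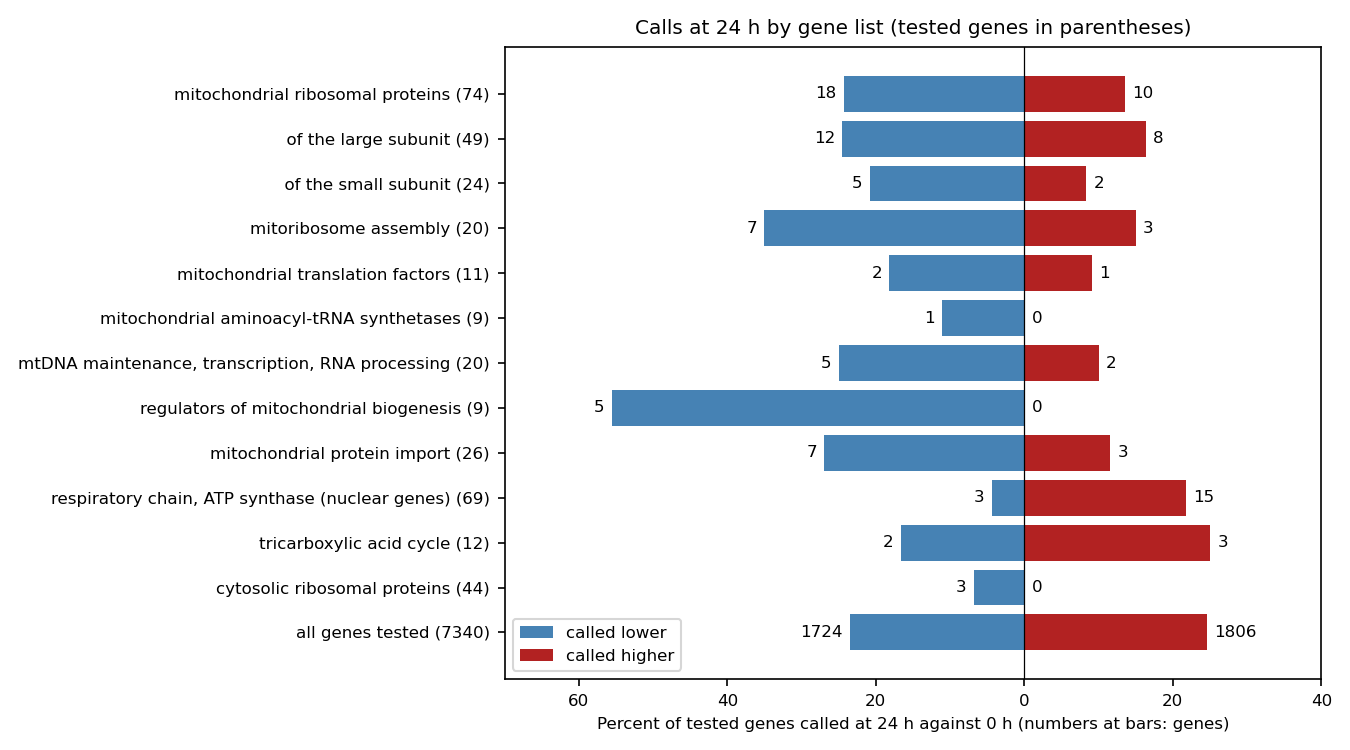
Bars give the percent of tested genes that were called lower (blue, to the left) and higher (red, to the right) at 24 h against 0 h for each gene list, with the number of tested genes in parentheses and the number called at each bar. The mitochondrial ribosomal proteins had 18 lower and 10 higher of 74, the regulators 5 lower and 0 higher of 9, the respiratory chain and ATP synthase 3 lower and 15 higher of 69, and all genes 1724 lower and 1806 higher of 7340.

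Sequences upstream of the start of 65 of the 74 genes were matched by symbol or gene ID in RefSeq (build GRCm38.p6), as windows with 250 bases before and 50 after the start. In these windows 5 motifs were searched on both strands, and no motif holds another. The NRF1 core GCATGCGC was in 12.3% of the members, against 6.93% of the tested genes with a window and 3.05% of all genes with one. The ETS core CCGGAAG, of the kind GABP binds, was in 36.9% of the members, against 22.9% and 9.93%. The YY1 core AAGATGGC was in 16.9%, against 5.99% and 3.19%, the E-box CACGTG in 7.69%, against 12.6% and 8.09%, and the CCAAT box in 38.5%, against 43.4% and 41.1%. A match is only a stretch of letters and not a binding site, and these shares were not tested.

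The ETS core was in 37.5% of the 16 that were lower at 24 h, 40.0% of the 10 that were higher and 35.9% of the 39 that were not called. The NRF1 core was in 3 of the 16, 1 of the 10 and 4 of the 39, the YY1 core in 1, 2 and 8, the E-box in 0, 0 and 5, and the CCAAT box in 9, 3 and 13. The CCAAT box was thus in 56.2% of the lower and 30.0% of the higher members and the YY1 core in 1 of 16 and 2 of 10; these differences in few genes were not tested. For each of these 4 called genes, 1 stretch with the NRF1 core is given 5' to 3' on the gene's strand, 70 bases each, with the motif in capitals. In Mrpl9 and Mrpl39 the letters match on both strands and overlap, so 10 bases are in capitals. Mrpl9 (chr3:94443266-94443335, plus strand), Mrpl39 (chr16:84735325-84735394, minus strand) and Mrps18b (chr17:35916621-35916690, minus strand) were lower at 24 h, and Mrpl10 (chr11:97041412-97041481, plus strand) was higher. The window of Mrps18b holds the NRF1 core a second time, after the start of the gene, which is not shown.
Mrpl9: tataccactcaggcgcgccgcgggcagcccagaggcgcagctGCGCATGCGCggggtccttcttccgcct
Mrpl39: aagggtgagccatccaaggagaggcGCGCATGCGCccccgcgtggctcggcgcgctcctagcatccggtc
Mrps18b: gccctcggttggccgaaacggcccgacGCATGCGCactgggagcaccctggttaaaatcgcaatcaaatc
Mrpl10: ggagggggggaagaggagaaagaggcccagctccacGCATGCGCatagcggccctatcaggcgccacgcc

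For the ETS core, the 70 bases just before the start are shown for a pair of genes that fell, Mrpl3 (chr9:105053198-105053267, plus strand) and Mrpl48 (chr7:100583131-100583200, minus strand), and a pair that rose, Mrpl34 (chr8:71464856-71464925, plus strand) and Mrpl43 (chr19:45006443-45006512, minus strand). Capitals mark the core, which in Mrpl48 lies on the opposite strand and in Mrpl43 occurs at 2 places. These genes were chosen after their values were seen. Their changes at 24 h were -0.86 for Mrpl3 and -0.68 for Mrpl48, beside 0.57 for Mrpl34 and 0.51 for Mrpl43. Each of these calls was lost in some fits with a single array left out, as given above. Whether the core goes with the direction of change was not tested.
Mrpl3: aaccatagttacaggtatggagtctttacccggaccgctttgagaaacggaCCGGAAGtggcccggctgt
Mrpl48: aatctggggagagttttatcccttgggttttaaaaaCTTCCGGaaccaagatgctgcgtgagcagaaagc
Mrpl34: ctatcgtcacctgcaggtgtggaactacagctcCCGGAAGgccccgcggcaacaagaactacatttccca
Mrpl43: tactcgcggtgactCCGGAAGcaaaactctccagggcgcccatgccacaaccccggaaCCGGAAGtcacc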

How the data were processed

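The deposited table gives, per array, a linear intensity (signal) for each of 22690 probe sets, which the authors had already summarised and scaled (all arrays have a trimmed mean of 500.2); the summarising software is not stated in the labels or headers. Groups and replicate numbers come from the sample titles. Symbols come from the platform annotation: 20380 probe sets name 1 gene, 691 several, and 1555 are not listed; 20351 had an Entrez identifier in RefSeq GRCm38.p6, and 0 symbols changed. The 64 control probe sets were left out.

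Signals were used as log2(signal + 32), so changes of low signals are understated; 21.2% to 26.5% of an array's signals were below 32. Kept probe sets exceeded in at least 2 arrays the median of all values, and each gene was represented by its brightest kept probe set. All 8 arrays were fitted in limma 3.58.1 (R 4.3.3, lmFit and eBayes, residual df 4, prior df 6.37), with Benjamini-Hochberg adjustment over 7340 genes per comparison and a threshold of 0.05. With 2 arrays a time, their number limits the precision. The fit was also run on simulated data with independent noise in each array. Those data had no link between arrays of the same replicate number, so that run cannot show how such a link affects the calls. Motifs were searched with Python 3.11.15.

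The members and lists were chosen with earlier results of these data known. Genes were named by rule: per time, up to 10 called members with the largest fall and rise among those whose groups did not overlap; 11 fixed members; subunits with other symbols; and, per other list, up to 3 called genes in each direction at 24 h. Other genes named (among them Mrpl17, Mrps24, Mrpl58, Gabpb1, Nrf1, Sp1, Gabpa and Yy1, the promoter examples and the rest of the called members) were chosen after their values were seen, as were the alternative fits of the other gene lists. Within-time differences between the arrays numbered 1 and 2 correlated across genes at 0.125 to 0.382 for all 6 pairs of times. The replicate numbers were therefore taken to pair the arrays in the alternative fits with the replicate block. The main fit did not pair the arrays. This pairing comes from the data, not the labels.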

Additional observations from a re-analysis of the deposited data

How the results depend on the processing

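Of the members called against 0 h, none changed direction under any alternative. With no filter on low values, which tests 12393 genes, 0 were lower and 1 higher at 6 h, 6 and 5 at 12 h, 9 and 5 at 24 h, and 0 lower between 24 h and 12 h. The stricter filter gave 5 lower and 5 higher at 6 h, the trend and robust eBayes 5 and 7, the replicate block 7 and 7, and a fit of only the 4 arrays compared 1 lower. Each of the stricter filter, the trend and robust eBayes, the replicate block, the quantile normalization and a pseudocount of 64 called 2 lower between 24 h and 12 h. Beyond these comparisons the replicate block left the counts within 1.5 times: 15 lower and 12 higher at 12 h, 21 and 12 at 24 h. Leaving out each array in turn gave 0 to 4 lower and 0 to 3 higher at 6 h, 5 to 12 and 3 to 11 at 12 h, 9 to 19 and 4 to 11 at 24 h, and 0 to 1 lower between 24 h and 12 h. The median change then ran between -0.08 and -0.01 at 6 h, between -0.10 and -0.07 at 12 h, and between -0.215 and -0.0914 at 24 h. Where the cause of such a shift is not the number of genes or arrays in the fit, it was not tested. Shares of all genes called in the same fits are given above only for 24 h with 1 array left out and for 6 h with the replicate block. The other counts were not set against all genes.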
